A study of Mus musculus with 6 samples.

Results

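Angiotensinogen (Agt), its receptor Agtr1a, angiotensin-converting enzyme (Ace), endothelin-1 (Edn1), the endothelin receptors Ednra and Ednrb, and the α1-adrenergic receptors Adra1a, Adra1b and Adra1d were examined in bulk RNA-seq of mouse thoracic aorta. These 9 genes were chosen by name as a ligand, an enzyme or a receptor of the 3 vasoconstrictor systems. Earlier results of these data were known when they were chosen. They were matched by Ensembl identifier to the rows of a count table of 52636 genes. Both endothelin receptors and the minor α1 receptors Adra1a and Adra1b were higher in knockout aortas, whereas Agt, Edn1, Ace, Agtr1a and the most abundant α1 receptor, Adra1d, did not pass the test. The call of Adra1a rested on few reads and depended on the knockout library KO-2.

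The table held 6 libraries from 12-week-old mice. The 4 WT libraries came from untreated C57BL/6J mice. The 2 KO libraries came from Tgfbr1/2iSMCKO mice, which carried floxed alleles of both Tgfbr1 and Tgfbr2, the Cre driver Myh11-CreERT2 and the mT/mG reporter, and received tamoxifen i.p. at 2 mg/d for 5 days from 11 weeks of age. WT therefore differed from KO in floxed alleles, Cre, reporter and tamoxifen together, and these cannot be told apart here. The Myh11 promoter drives Cre in smooth muscle cells (SMCs), so by design endothelial cells, fibroblasts and other cells of the wall keep both receptors. The study reports recombination in most SMCs, and receptor loss by cell type was not measured in these libraries. The transgene lies on the Y chromosome, and the study states that aortas of male mice were analysed. There were as many libraries as mice in each group, so each library was taken as 1 mouse.

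All 3 systems raise vascular tone through receptors that couple to Gq proteins. Renin and ACE release angiotensin II from angiotensinogen, and angiotensin II acts on the AT1 receptor of SMCs. Endothelin-1 comes mainly from endothelial cells; the ETA receptor (Ednra) on SMCs mediates constriction, while the ETB receptor (Ednrb) is known in endothelium, where it releases nitric oxide and clears endothelin, as well as in SMCs, glia and melanocyte precursors. Norepinephrine from sympathetic nerves acts on α1 receptors, of which α1D is the subtype best known for contraction of the mouse aorta.

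Total counts ranged from 19650983 to 28860598 per library. Whole-gene counts of the targeted receptors did not separate the groups, with normalised counts of Tgfbr1 of 3858 to 5420 in WT and 5780 and 4568 in KO, and of Tgfbr2 of 5327 to 7042 in WT and 5784 and 5937 in KO. Cre removes only part of each gene from SMCs, so these counts do not check the KO label, and KO-1 and KO-2 below are the libraries labelled so. The share of counts from mitochondrial genes was 2.62% to 4.44% in WT, 3.38% in KO-1 and 11.7% in KO-2. Of 9 smooth muscle markers, 0 passed the DESeq2 adjusted p of 0.05 in either direction and 0 passed in edgeR; at an unadjusted DESeq2 p under 0.05, 1 was higher and 3 were lower.

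All 9 genes had an adjusted p-value in a DESeq2 fit over all genes. Of them 4 were higher in KO (Ednra, Ednrb, Adra1a, Adra1b) and 0 lower, also at an unadjusted p or in edgeR, which called 3 higher. In DESeq2, 3 of the 4 also exceeded a 2-fold change (Ednrb, Adra1a, Adra1b). Over the 17065 genes tested, 10.4% passed the adjusted p in either direction, 5.7% as higher and 4.69% as lower in KO, and 3.53% were higher by more than 2-fold. These shares are for the DESeq2 adjusted p. The share over all genes was not counted at an unadjusted p or in edgeR, here or for the lists below. Both KO libraries lay above all WT libraries for 7 of the 9 genes, against 17.9% of all genes tested. The median log2 fold change was 1.40 for the 9 genes and 0.01 for all genes tested. Because the genes were chosen with earlier results of these data known, these contrasts describe the 9 genes and do not test them as a set.

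**Figure D1:**
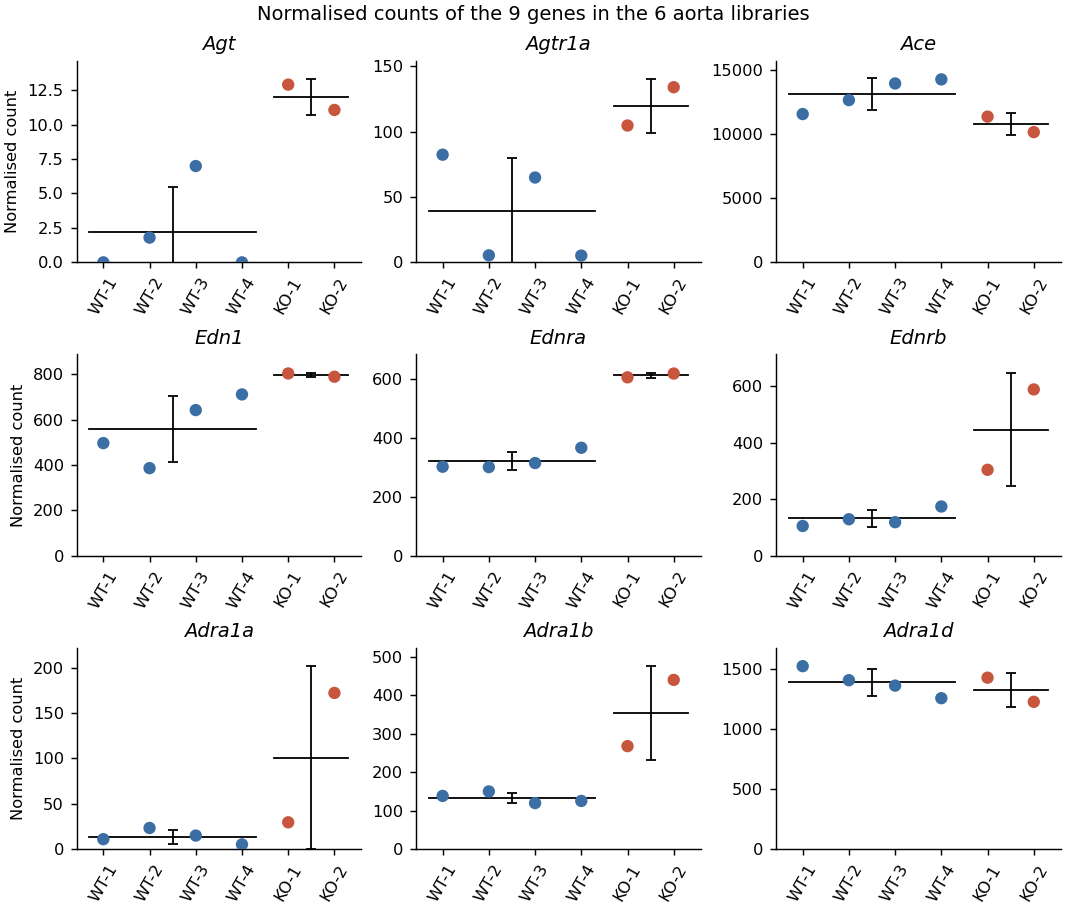
Normalised counts (y axes, linear and starting at 0) of the 9 genes in each of the 4 WT (blue) and 2 KO (red) libraries; horizontal bars are group means and vertical bars the SD, cut at 0. For Ednra the 2 KO libraries, at 606 and 618, sit above all WT libraries, of which the highest is 366; for Adra1a the KO libraries differ from each other, at 29.6 and 172.

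The endothelin receptors changed in both KO libraries. Ednra, which encodes the ETA receptor, lies at chr8:77663031-77724464 on the minus strand (GRCm38; all gene positions are from GENCODE M21). Its normalised count was 302, 301, 315 and 366 for the WT libraries in order, against 606 and 618 for KO-1 and KO-2. The 2 KO values were close to each other and the groups did not overlap. The fold change was 1.91 (log2 0.93 ± 0.21 SE, DESeq2 adjusted p = 0.000214; n = 4 WT and 2 KO), which fell short of the 2-fold threshold.

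Ednrb (chr14:103814625-103844402, minus strand) was at 105, 129, 119 and 174 normalised counts in WT and at 304 and 589 in KO. The groups did not overlap, and KO-2 stood well above KO-1. The fold change was 3.37 (log2 1.75 ± 0.33 SE, DESeq2 adjusted p = 8.7e-06). Without KO-2 the log2 fold change was 1.22 and still passed (adjusted p = 0.0252), and without KO-1 it was 2.16.

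Levels per kb of exon allow a rough comparison of genes, as all annotated exons count whether or not they were expressed. The summed level of both endothelin receptors was 79.9 to 108 normalised counts per kb in WT, 182 in KO-1 and 251 in KO-2. Ednrb made up 30.9% to 37.9% of this sum in WT, 39.2% in KO-1 and 55.0% in KO-2. The count ratio of Ednra to Ednrb within a library, which needs no scaling for depth, was 2.099 to 2.855 in WT, 1.99 in KO-1 and 1.05 in KO-2. Both KO ratios were below all WT ratios, but KO-1 only narrowly, and the two-sided exact permutation p was 0.0667, the smallest that 4 against 2 libraries allow. The log2 ratio differed by -0.77, or by -0.31 without KO-2.

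The promoters of Ednra, Ednrb and Adra1b are shown because these receptors passed the adjusted p and because SMAD proteins, the effectors of TGF-β receptors, bind DNA. RefSeq gave a promoter for 6 of the 9 genes, all except Agtr1a, Adra1a and Adra1d (GRCm38.p6), here the 250 bases before the transcription start, 5′ to 3′ on the strand of the gene. Capitals mark matches on either strand to 5 motifs, namely a SMAD element, an AP-1 site, a GC box, a TATA box and the CArG box bound by serum response factor.
Ednra promoter, chr8:77724453-77724702, minus strand: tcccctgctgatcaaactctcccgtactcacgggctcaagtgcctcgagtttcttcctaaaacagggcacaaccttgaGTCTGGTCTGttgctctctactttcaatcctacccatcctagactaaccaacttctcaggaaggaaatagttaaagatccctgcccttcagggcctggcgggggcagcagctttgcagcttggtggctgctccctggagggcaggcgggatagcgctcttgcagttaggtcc
Ednrb promoter, chr14:103843702-103843951, minus strand: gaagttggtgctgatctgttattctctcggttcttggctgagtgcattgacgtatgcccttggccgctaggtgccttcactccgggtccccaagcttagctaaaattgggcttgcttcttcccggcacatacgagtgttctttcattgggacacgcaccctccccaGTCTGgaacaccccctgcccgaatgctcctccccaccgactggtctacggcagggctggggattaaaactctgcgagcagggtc
Adra1b promoter at the distal start, chr11:43901238-43901487, minus strand: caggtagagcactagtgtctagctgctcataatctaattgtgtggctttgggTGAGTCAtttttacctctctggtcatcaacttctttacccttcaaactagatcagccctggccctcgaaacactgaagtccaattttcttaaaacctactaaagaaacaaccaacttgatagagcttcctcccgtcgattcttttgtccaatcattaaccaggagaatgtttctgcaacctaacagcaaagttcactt
Adra1b promoter at the proximal start, chr11:43836490-43836739, minus strand: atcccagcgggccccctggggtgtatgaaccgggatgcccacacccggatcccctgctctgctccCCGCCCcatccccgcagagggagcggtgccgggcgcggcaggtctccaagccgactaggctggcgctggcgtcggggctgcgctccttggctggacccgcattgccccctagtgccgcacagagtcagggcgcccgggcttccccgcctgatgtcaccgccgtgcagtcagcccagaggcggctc

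The Ednra window held the SMAD element, searched as CAGAC, 2 times side by side, starting 172 and 167 bases before the transcription start, and the Ednrb window held it 1 time, 84 bases before. Neither held any of the other 4 motifs. The Ednrb window precedes the RefSeq start and lies inside the GENCODE span of the gene, whose 5′ end is at 103844402. The bases before that end were not searched. Of 32851 promoters of the same length, 42.2% held at least 1 SMAD element, so a match is common. The distal Adra1b window, with 41.6% G and C, held an AP-1 site, searched as TGANTCA, 198 bases before the start. This motif was found in 6.75% of promoters. The proximal window, with 72.8% G and C, held 1 GC box, searched as GGGCGG and found in 32.7%. Edn1, which did not pass the test, also held 2 SMAD elements, at 47 and 35 bases before its start. A TATA box, searched as TATAAA and present in 12.4% of promoters, stood 30 bases before the start of Agt and 31 bases before the upstream start of Ace, and a CArG box, present in 1.47%, was in none of the 8 promoters of the 6 genes. These matches describe letters in a window, and binding was not measured.

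Edn1, the ligand, had normalised counts of 497, 386, 642 and 711 in WT and 804 and 789 in KO (chr13:42301476-42307990, plus strand). Both KO libraries were above all WT libraries, but WT spread widely, and the fold change of 1.43 did not pass (95% interval 0.999 to 2.03, DESeq2 adjusted p = 0.228). Of the 5 other endothelin genes fixed for comparison, 3 had an adjusted p-value and 0 passed in either direction in DESeq2 or edgeR; 2 were higher at an unadjusted DESeq2 p under 0.05. Ece1, which cleaves the endothelin precursor, was at 3313 to 5127 in WT and at 6014 and 6395 in KO (log2 0.51 ± 0.20 SE, adjusted p = 0.0893). Edn3, a ligand with high affinity for the ETB receptor, was low, at 9.88 to 19.0 in WT and 42.5 and 38.1 in KO (adjusted p = 0.131).

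**Figure D2:**
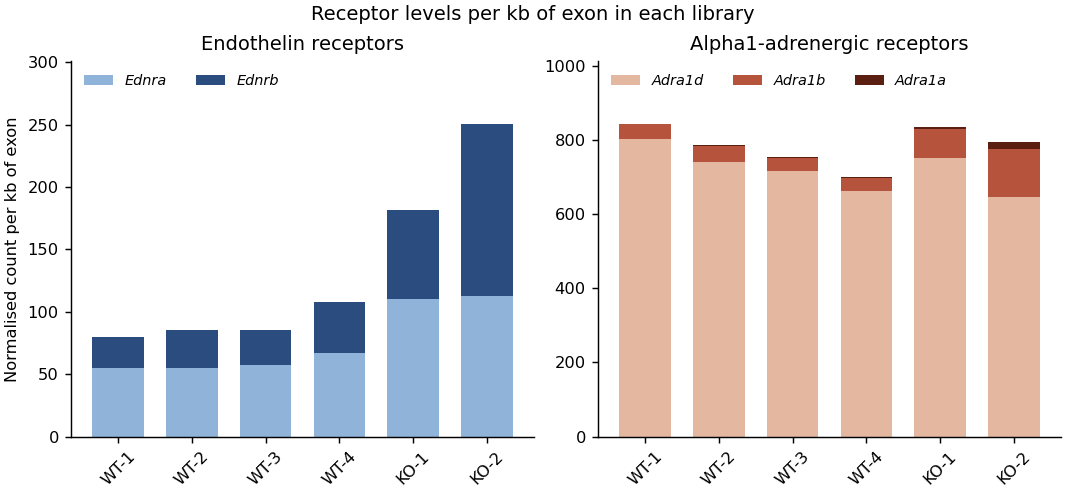
Normalised counts per kb of exon (y axes, starting at 0) of the endothelin receptors and of the α1-adrenergic receptors, stacked by gene, in each library. The endothelin receptor sum is 79.9 to 108 in WT and 182 and 251 in KO, while the α1 receptor sum is 700.2 to 845 in WT and 835 and 797 in KO, with a larger Adra1b part in KO.

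Among the α1-adrenergic receptors, the minor subtypes rose and the main subtype did not pass the test. Adra1d (chr2:131545850-131562283, minus strand) was at 1525, 1408, 1363 and 1258 normalised counts in WT and at 1429 and 1228 in KO. The groups overlapped, the fold change was 0.957 (95% interval 0.754 to 1.22), and the DESeq2 adjusted p was 0.889. Its sign turned without KO-2, to a log2 fold change of 0.05.

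Adra1b (chr11:43774606-43901210, minus strand) was at 138, 150, 120 and 125 in WT and at 268 and 440 in KO. All WT values lay close together, below both KO values, and KO-2 was the higher. The fold change was 2.65 (log2 1.40 ± 0.29 SE, DESeq2 adjusted p = 7.0e-05). It passed without KO-2 too, at a log2 fold change of 1.02 (adjusted p = 0.0244).

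Adra1a (chr14:66635251-66771168, plus strand) rested on few reads. Its raw counts were 10, 26, 15 and 5 in WT and 39 and 140 in KO, which gave normalised counts of 11.0, 23.4, 14.98, 5.22, 29.6 and 172 in the same order. KO-1 was only slightly above the highest WT library, whereas KO-2 was far above all others. The fold change was 7.32 with a 95% interval of 2.68 to 20.02 (log2 2.87 ± 0.74 SE, DESeq2 adjusted p = 0.00248). Without KO-2 the log2 fold change was 1.123 and the adjusted p 0.617, and without KO-1 it was 3.65, so KO-2 decided the call. In edgeR's quasi-likelihood test the adjusted p was 0.0608.

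The summed level of the 3 α1 receptors per kb overlapped between groups, at 700.2 to 845 normalised counts per kb in WT, 835 in KO-1 and 797 in KO-2. Adra1d made up 94.0% to 95.1% of this sum in WT, 90.1% in KO-1 and 81.2% in KO-2. Adra1b made up 4.69% to 5.62% in WT, 9.49% in KO-1 and 16.3% in KO-2. The count ratio of Adra1d to Adra1b was 9.36 to 11.3 in WT, 5.33 in KO-1 and 2.79 in KO-2. These ratios did not overlap and differed by a log2 value of -1.43 (-0.96 without KO-2), again at the smallest two-sided exact permutation p of 0.0667.

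In the renin-angiotensin system, Ace was the most abundant of the 9 genes (chr11:105967945-105989964, plus strand). ACE removes 2 residues from angiotensin I to make angiotensin II. Its normalised counts were 11590, 12680, 13980 and 14300 in WT and 11390 and 10180 in KO. Both KO values were below all WT values, KO-1 by little, and the fold change of 0.821 did not pass (95% interval 0.657 to 1.03, DESeq2 adjusted p = 0.304).

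Agtr1a, the AT1a receptor (chr13:30336441-30382867, plus strand), was uneven within WT. It had 75, 6, 65 and 5 raw counts in the WT libraries in order, and 138 and 109 in KO, or 82.4, 5.39, 64.9, 5.22, 105 and 134 after normalisation. WT-1 and WT-3 were more than 10 times above WT-2 and WT-4, and both KO values were higher than all 4. With this spread the fold change of 3.03 had a 95% interval of 0.510 to 18.0 (DESeq2 adjusted p = 0.524), which spans both directions. The count ratio of Agtr1a to Ednra overlapped between groups, at 0.0157 to 0.274 in WT and 0.174 and 0.218 in KO (two-sided exact permutation p = 0.400). Agtr1b, a closely similar copy with which reads may be shared, was at 9.40 to 26.0 in WT and 14.4 and 23.4 in KO.

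Agt, which encodes angiotensinogen, a protein made chiefly by liver and also by fat (chr8:124556534-124569706, minus strand), was near the limit of detection. Its raw counts were 0, 2, 7 and 0 in WT and 17 and 9 in KO. Both KO libraries exceeded all WT libraries, but the 95% interval of the log2 fold change was -0.66 to 5.53 (DESeq2 adjusted p = 0.382).

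**Figure D3:**
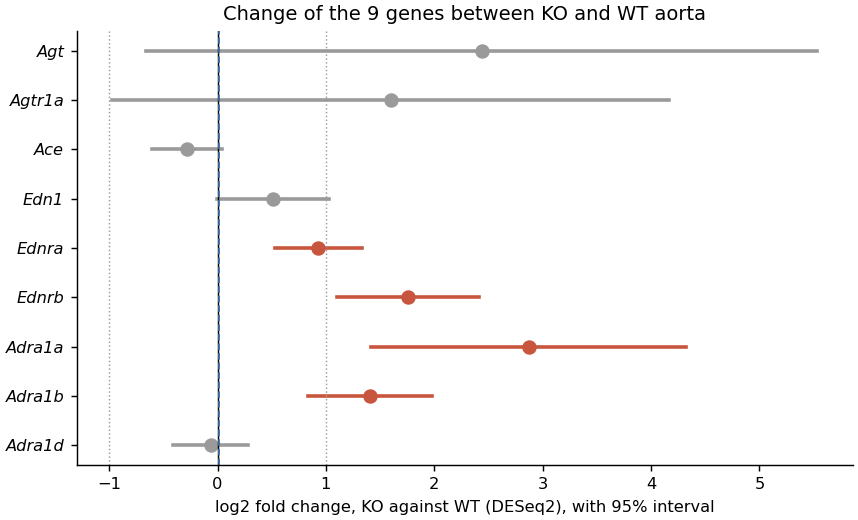
Log2 fold change of KO against WT (x axis) for the 9 genes, with DESeq2 estimates as points and 95% intervals as bars; red marks an adjusted p under 0.05, grey the other genes, dotted lines a 2-fold change and the dashed line the median of all genes tested, 0.01. The intervals of Ednra, Ednrb, Adra1a and Adra1b lie above 0, while those of Agt and Agtr1a are the widest.

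Per kb of exon, the WT means ran from Ace, at 2485 ± 236 (SD, n = 4), through Adra1d at 731 ± 58.1, Edn1 at 261 ± 68.2, Ednra at 58.6 ± 5.66, Adra1b at 39.4 ± 4.001, Ednrb at 30.9 ± 7.01 and Agtr1a at 14.2 ± 14.4, to Adra1a at 1.56 ± 0.873 and Agt at 1.16 ± 1.75 normalised counts per kb. The ranges of the 4 WT libraries overlapped between Adra1b and Ednrb, between Ednrb and Agtr1a, between Agtr1a and Adra1a and between Adra1a and Agt, and neighbours from Ace down to Adra1b did not overlap. In KO the same 3 genes led, with Ace at 2039, Adra1d at 699.5 and Edn1 at 372. Ednra at 111 and 113, Ednrb at 71.3 and 138 and Adra1b at 79.2 and 130 then overlapped with each other.

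Markers of other cell types also differed in the KO libraries. In a bulk sample, a change in the number of cells of a type and a change in RNA per cell cannot be told apart. Summed per kb and relative to the WT mean, brown adipocyte markers were 2.32-fold in KO-1 and 17.1-fold in KO-2 (4 of 6 genes higher), with Ucp1 at 0 to 123 normalised counts in WT, 40.2 in KO-1 and 6861 in KO-2. Mesothelial markers were 2.58-fold and 7.23-fold (6 of 6 higher), and general adipocyte markers 1.21-fold and 10.03-fold (2 of 7 higher). In these 3 sums, as in Ednrb, Adra1a and Adra1b, KO-2 stood above KO-1. The general adipocyte sum in KO-1 was within the WT range, at 1139 against 672 to 1287 normalised counts per kb. KO-2 also stood above KO-1 in the smooth muscle, endothelial, macrophage, red blood cell, mast cell and lymphocyte sums. It stood below KO-1 in the fibroblast, Schwann cell and cardiac muscle sums. The part of any of these sums in the rise of the 3 receptors was not tested. The summed levels were 524 to 794 normalised counts per kb in WT, 1551 in KO-1 and 11430 in KO-2 for brown adipocyte markers, and 75.0 to 142, 280 and 786 for mesothelial markers.

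Endothelial markers, relevant to Edn1, Ece1 and Ednrb, were 1.41-fold in KO-1 and 1.50-fold in KO-2, with 4 of 9 genes higher and 0 lower. Within this list both KO libraries were above all WT libraries for 6 genes and below all of them for 2. Over all genes tested, 17.9% lay above, and the share below was not counted. The 2 genes below did not pass the test. Egfl7 was at 1023 to 1466 normalised counts in WT and 854 and 810 in KO (DESeq2 adjusted p = 0.131). Erg was at 1462 to 1965 in WT and 914 and 1310 in KO (adjusted p = 0.0719). Summed per kb, the ratio to the WT mean was 1.35 and 1.61 for macrophage markers (5 of 6 genes higher). It was 1.23 and 1.11 for fibroblast markers (2 of 8 higher), and 4.01 and 22.7 for red blood cell markers (4 of the 4 with an adjusted p higher). Markers of Schwann cells, in which ETB is also known, were at 1.49 and 1.46, those of mast cells at 0.870 and 2.09 and those of lymphocytes at 1.57 and 6.48. In these 3 lists 0 genes passed the adjusted p in DESeq2 or edgeR, and 3 of 6, 1 of 5 and 2 of 5 were higher at an unadjusted DESeq2 p under 0.05. Cardiac muscle markers were higher in KO-1 than in KO-2, at 22.8 in KO-1 and 1.66 in KO-2 (4 of 7 higher). Smooth muscle markers were at 0.827 and 0.978. No marker was at 0 in all 6 libraries. Of the defining markers, Elovl3 of brown fat was at 0 in 3 of 4 WT libraries and in KO-1, and Nppa of the atrium at 0 in 3 of 4 WT libraries. The part of these cells in the receptor values was not tested.

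**Figure D4:**
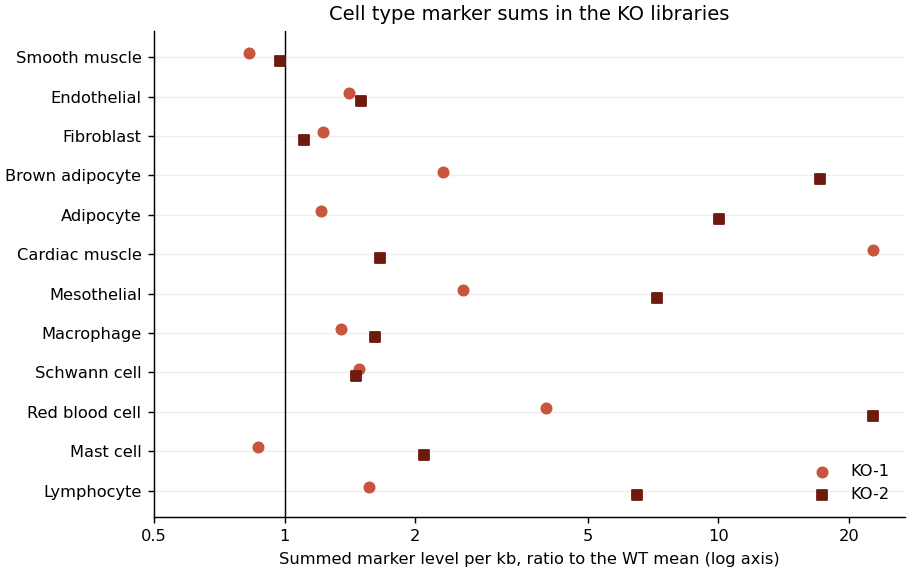
Summed level per kb of 12 cell type marker lists in KO-1 (circles) and KO-2 (squares) as a ratio to the WT mean (x axis, log scale). Brown adipocyte markers lie at 2.32 and 17.1 and cardiac muscle markers at 22.8 and 1.66, while smooth muscle markers lie at 0.827 and 0.978.

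The other renin-angiotensin and kinin genes showed 1 gene higher and 1 lower among 11 with an adjusted p-value, of 14 listed (median log2 fold change 0.00). Ren1, which encodes renin, rose from 23.0 to 49.4 normalised counts in WT to 70.6 and 135 in KO (log2 1.55 ± 0.49 SE, DESeq2 adjusted p = 0.0192), but the adjusted p was 0.402 without KO-2, 0.0508 to 0.0533 without WT-1, WT-3 or WT-4, and 0.0626 in edgeR's quasi-likelihood test. Agtrap, whose product binds the AT1 receptor and promotes its internalisation, fell in both KO libraries, at 1432 to 1526 in WT and 803 and 815 in KO (log2 -0.86 ± 0.16 SE, adjusted p = 4.2e-06).

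Adrenergic genes other than the α1 receptors had the larger number of calls, 6 higher and 1 lower of 17 with an adjusted p-value (19 listed, median log2 fold change 0.56). In edgeR's quasi-likelihood test 0 of them were higher and 1 lower. Adra2a, an α2 receptor known to inhibit norepinephrine release from nerve endings, fell from 166 to 423 normalised counts in WT to 63.0 and 102 in KO (log2 -1.81 ± 0.39 SE, adjusted p = 0.000113). Adrb3, the β receptor of fat, rose from 53.9 to 117 in WT to 125 and 623 in KO (log2 2.34 ± 0.52 SE, adjusted p = 0.000278), with the adjusted p at 0.490 without KO-2. Adrb1, the main β receptor of the heart, and Adra2c also rose, at log2 1.53 ± 0.51 SE (adjusted p = 0.0305) and 1.26 ± 0.44 SE (adjusted p = 0.0431). Without KO-2 their adjusted p-values were 0.441 and 0.376, and leaving out WT-3 or WT-4, as well as WT-2 for Adrb1 and WT-1 for Adra2c, also ended their calls. Without independent filtering Adra2c was at 0.0640.

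Of the kinases that phosphorylate activated receptors, Grk3 and Grk5 rose. Grk5 rose from 804 to 1025 in WT to 1640 and 1275 in KO (log2 0.67, adjusted p = 0.0136) and Grk3 from 419 to 681 in WT to 968 and 953 in KO (log2 0.73, adjusted p = 0.0231). Maob, a monoamine oxidase that degrades amines, rose by log2 0.56 (adjusted p = 0.0314). Grk2 was at 2027 to 2147 in WT and 2043 and 1958 in KO (adjusted p = 0.834). None of Grk5, Grk3 and Maob passed in edgeR's quasi-likelihood test, with adjusted p-values of 0.0581, 0.0819 and 0.0701. Grk5 lost its call without KO-1 (adjusted p = 0.153), Grk3 without WT-3, KO-1 or KO-2 (up to 0.123) and Maob without WT-1, WT-2 or KO-2 (up to 0.186).

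**Figure D5:**
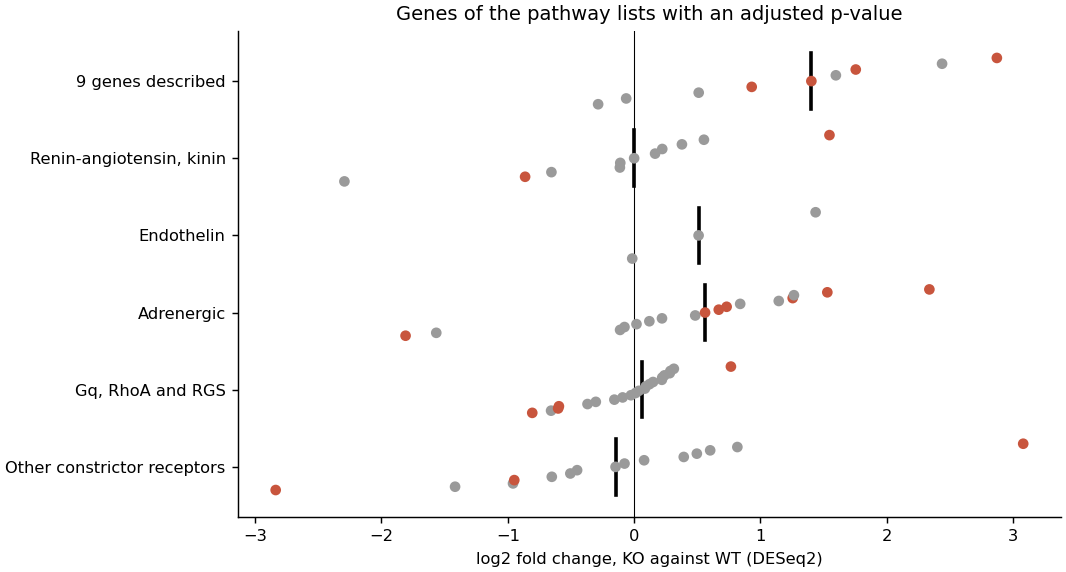
Log2 fold change of KO against WT (x axis) for each gene with an adjusted p-value in the 9 genes described and 5 other lists; red marks an adjusted p under 0.05, grey the other genes, and black bars the list medians, from 1.40 for the 9 genes to -0.15 for the other constrictor receptors. Of the 22 Gq, RhoA and RGS genes shown, 18 are grey.

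Downstream of these receptors, 1 Gq, RhoA or RGS gene was higher and 3 lower of 22 with an adjusted p-value (23 listed, median log2 fold change 0.06). Prkce, a protein kinase C, rose from 352 to 416 in WT to 586 and 760 in KO (log2 0.77 ± 0.21 SE, DESeq2 adjusted p = 0.00557). Arhgef1, the exchange factor that links angiotensin II to RhoA in SMCs, fell from 3342 to 5237 in WT to 2529 and 2310 in KO (log2 -0.81 ± 0.21 SE, adjusted p = 0.00258). Rgs4, which shortens Gq signals, fell by 0.60 on the log2 scale (adjusted p = 0.0235), and Ppp1r14a, the myosin phosphatase inhibitor CPI-17, fell by 0.60 (adjusted p = 0.0464). Prkce and Arhgef1 lost their calls without KO-2 (adjusted p = 0.112 and 0.0681). Rgs4 lost its call without WT-2, WT-4 or KO-1 (up to 0.159) and Ppp1r14a without WT-1, WT-2, WT-3 or KO-1 (up to 0.2804). In edgeR's quasi-likelihood test Rgs4 had an adjusted p of 0.0734 and Ppp1r14a 0.107, and in DESeq2 Ppp1r14a was at 0.0688 without independent filtering and 0.0559 with total counts. The G proteins Gnaq and Gna11 and the phospholipases Plcb1, Plcb3 and Plcb4 did not pass the test.

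The genes with the most similar pattern over the 6 libraries were listed for the 6 members whose mean normalised count reached 100, among 11447 genes at that level. Likeness was the root mean square difference of log2 normalised counts, each centred on its own mean. Among the nearest genes of Ednra were Pdzd2 (0.058) and Cmpk2 (0.080). Ednrb was nearest to C3 (0.121), Prg4 (0.135) and Ebf3 (0.178), and Adra1b to Serpina3n (0.057), Adhfe1 (0.102) and Arhgap18 (0.117). Edn1 was nearest to Lmbrd2 (0.102), F3 (0.110) and Zscan22 (0.111). Ace was nearest to Fam160b1 (0.035), Anxa1 (0.037) and Ago2 (0.037), and Adra1d to Bccip (0.031), Lrsam1 (0.032) and Gpr27 (0.032). These lists describe 6 libraries that share their groups.

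Exons of Ace, Edn1, Ednra and Adra1d overlap antisense genes, which held 0, 0, 36 and 158 counts over all 6 libraries. Whether counting used strand is not stated, so reads of these partners could not be told apart from those of the 4 genes.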

How the data were processed

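RNA was taken from thoracic aortas without hemorrhagic lesions, sequenced on a NovaSeq, trimmed with Trim Galore, aligned by the authors with HISAT2 to mouse build mm10 (GRCm38) and assembled with StringTie on GENCODE. Values were deposited as estimated counts of reads for every gene. They are whole numbers, and how coverage was turned into counts is not given in the sources used here. Column headings are codes, matched to the labels WT-1 to WT-4 and KO-1 and KO-2 by prefix and last digit. Of 52636 genes, 27151 had 0 counts, and 52489 identifiers matched GENCODE M21.

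DESeq2 1.42.0 in R 4.3.3 was fitted to all genes and all 6 libraries with group as the only term (Wald test, median-of-ratios size factors, Benjamini-Hochberg adjusted p under 0.05); 17065 genes had an adjusted p-value after independent filtering. Normalised counts are counts over size factors. Levels per kb divide by the length of all annotated exons of a gene, merged where they overlap, and not by that of the transcripts expressed. Receptor ratios used log2 values with a pseudocount of 0.5 and an exact permutation test. edgeR 4.0.16 was an alternative. Named genes were all 9 members, in 5 other lists the genes past the adjusted p (at most 6 a list, by smallest adjusted p), 3 nearest genes per member at a mean of at least 100, and marker lists as counts; a few of the genes so selected are not reported here. The members and lists were chosen with earlier results of these data known. Each library was taken as 1 mouse, since there were as many libraries as mice in each group; the labels themselves do not tie libraries to mice. Total counts of 19650983 to 28860598 per library left Agt and Adra1a at few reads, and intervals cover only the spread the model estimates. Whether same-numbered libraries belong together could not be decided from their correlation over 11447 genes. The deviations of the KO libraries, centred on their own mean, mirror each other.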

Additional observations from a re-analysis of the deposited data

Results flagged for a closer look

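None of 28 values examined in the 4 WT libraries stood apart from the others by Dixon's criterion, where chance would give 1.4 at 1 in 20. The criterion looks for 1 library apart from the rest, so it cannot flag a split into 2 pairs such as that of Agtr1a. The 2 KO libraries are too few to be examined.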

How the results depend on the processing

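Of 110 alternative values for the log2 fold changes of the 9 genes, 103 kept their direction and their side of the threshold. Another 6 lost significance, all of them for Ednra, Adra1a or Adra1b. The remaining 1 changed sign, namely Adra1d without KO-2 (log2 fold changes of -0.175 to 0.0526 over the libraries left out). Agt, Agtr1a, Ace, Edn1 and Adra1d passed under no alternative, so their values among the 103 are ones that stayed uncalled. Agt had an adjusted p-value in only 6 of the 13 alternatives. Ednrb passed the adjusted p under every alternative run (up to 0.0252). The count of 4 members past the adjusted p was 3 with edgeR, with or without a filter on low counts, 4 under the other scalings and filters, and 3 to 4 when each library was left out; the count of 3 past the 2-fold threshold as well was 2 to 4. Other pathway genes past the adjusted p numbered 16, 15 to 16 under the other scalings and filters, 5 with edgeR with or without a filter, and 8 without KO-2 (8 to 16 over the libraries left out). With the replicate number as a replicate block, in which WT-3 and WT-4 had levels of their own, the counts were 1 member (Ednrb), 1 past the 2-fold threshold and 3 other pathway genes, and Ednra had an adjusted p of 0.129, Adra1b 0.157 and Adra1a 0.255. Same-numbered libraries correlated at -0.131 and -0.0178 over 11447 genes, after each group was centred on its own mean. The deviations of the 2 KO libraries then mirror each other, so this check cannot decide whether same-numbered libraries belong together. Only 2 pairs inform the block fit, and the loss of calls does not by itself measure a weaker effect. The receptor ratios kept their direction in all alternatives: -1.23 to -0.31 for Ednra to Ednrb, -1.90 to -0.96 for Adra1d to Adra1b and 0.91 to 2.29 for Agtr1a to Ednra (log2, KO minus WT, each library left out). Depth limited Agt, with at most 17 counts in a library, and Adra1a.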

Other observations

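Receptors of other vasoconstrictors showed 1 gene higher and 2 lower of 15 with an adjusted p-value (16 listed, median log2 fold change -0.15). Tbxa2r, the thromboxane receptor, fell from 805 to 1206 normalised counts in WT to 616 and 422 in KO (log2 -0.95 ± 0.26 SE, DESeq2 adjusted p = 0.00521), and the adjusted p was 0.180 without KO-2 and 0.0678 in edgeR's quasi-likelihood test. Chrm3 is the muscarinic M3 receptor, through which acetylcholine relaxes arteries by way of the endothelium. It fell from 17.1 to 25.0 in WT to 2.28 and 3.69 in KO (log2 -2.84 ± 0.91 SE, adjusted p = 0.0228). Its counts were low in WT and near the limit of detection in KO. Its adjusted p was 0.0509 without WT-3, 0.135 without KO-1 and 0.0657 without KO-2. Oxtr, the oxytocin receptor, rose from 0 to 13.0 in WT to 35.7 and 93.4 in KO (log2 3.08 ± 0.85 SE, adjusted p = 0.00576), with an adjusted p of 0.421 without KO-2 and 0.0713 in edgeR.

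Chosen after its values were seen, Arrb1, whose product β-arrestin-1 turns off activated receptors, also split the WT libraries, less widely than Agtr1a and into different pairs: 200 and 299 normalised counts in WT-1 and WT-4, 1643 and 1892 in WT-2 and WT-3, and 472 and 209 in KO. The bradykinin receptors, also named after their values were seen, were below all WT libraries in both KO libraries without passing the test: Bdkrb2 was at 204 to 294 in WT and 157 and 161 in KO (adjusted p = 0.0977), and Bdkrb1 at 18.0 to 27.5 in WT and 8.35 and 0 in KO (adjusted p = 0.105).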
